A study of Mus musculus with 9 samples.

Results

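The Toll-like receptor and adaptor genes examined here were *Tlr1*, *Tlr2*, *Tlr3*, *Tlr4*, *Tlr5*, *Tlr6*, *Tlr9*, *Myd88*, *Ticam1* and *Irak2*. They were chosen as a named family, and RelA or RelB peaks were assigned to them when the peak centre lay within 50 kb of the annotated start site in the mm9 mouse genome. The 10 genes are part of 22380 protein-coding genes, and 9 of the 15069 binding sites of the whole dataset fell within their windows. A site is a run of overlapping peaks from any of the libraries, and those 9 sites were built from 20 of 25055 peaks. All libraries came from Nfkb2-/- mouse embryonic fibroblasts (MEFs), which lack the p100 precursor, so no cells with intact *Nfkb2* enter any comparison. The cells were untreated (0 h) or had received 10 ng/ml TNF for 6 h (chronic TNF, TNFc), and RelA (p65) or RelB was precipitated with its own antibody. There were 2 libraries for each antibody and time point, 8 in all, with no statement of whether they came from separate cultures, so the spread between them may be technical. Each library's peaks were called against input from Nfkb2-/- cells, a single library combined from both replicates.

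Toll-like receptors recognise conserved microbial molecules at the cell surface or in endosomes. All of the receptors studied here except Tlr3 signal through the adaptor Myd88 and the Irak kinases, while Tlr3, and Tlr4 in endosomes, use the adaptor Ticam1 (TRIF). Both routes activate NF-κB, whose subunits RelA and RelB bind κB sequences in the promoters and enhancers of inflammatory genes, and fibroblasts are able to respond to several Toll-like receptor ligands.

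The lists from 6 h held 7052 and 5688 peaks for RelA and 5192 and 6698 peaks for RelB. Those from 0 h held 182 and 194 peaks for RelA and 35 and 14 for RelB. The lists give the reads of each called peak and not the total reads per library, so sequencing depth is unknown and a gene without a peak is not shown to be unbound. ChIP reads in peaks numbered 120352 to 162105 per library at 6 h.

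No gene of the family had a peak at 0 h in any of the 4 libraries, as was the case for most genes, since 1.16% of protein-coding genes had one. At 6 h, 7 of the 10 genes had at least 1 peak within 50 kb, where the share over all protein-coding genes was 43.5%. The 7 genes became 4 when peaks needed an FDR under 0.01, which removed *Tlr1*, *Tlr3* and *Tlr6*, and 3 with a distance of 10 kb. The share over all genes was not computed under such other settings, so these counts have none beside them. A site called in all 4 libraries at 6 h was found near 2 of the 10 genes, *Tlr2* and *Irak2*, beside 9.80% of all protein-coding genes. A site called in both RelA libraries and in no RelB library was found near *Myd88* and *Ticam1*, 2 of the 10, beside 2.72% of all genes. *Myd88* left this group at an FDR under 0.01 and *Ticam1* at 10 kb. Without RelA replicate 2, a peak in RelA replicate 1 alone was enough, and *Tlr2* and *Tlr3* were added to give 4 genes. Each was added through a peak of 11 ChIP reads at an FDR of 0.0826. The reverse, a site in both RelB libraries and no RelA library, was found near 0 of the 10 genes and near 2.74% of all genes. *Tlr1*, *Tlr3* and *Tlr6* had only peaks seen in 1 library, and *Tlr4*, *Tlr5* and *Tlr9* had none.

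**Figure D1:**
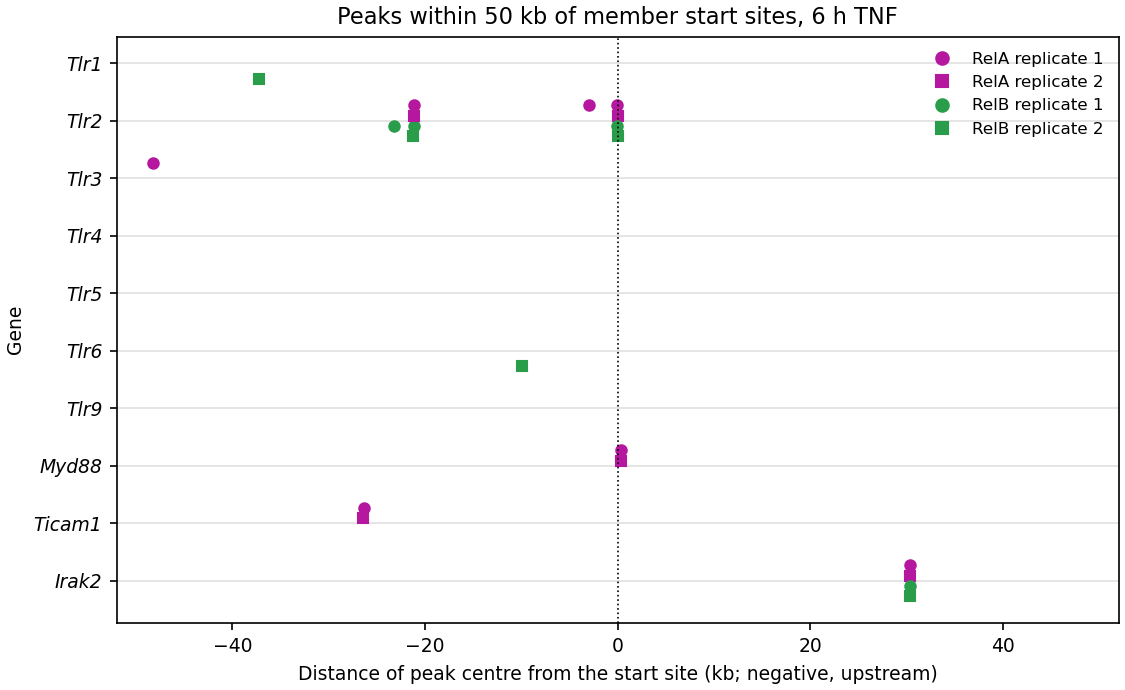
Peaks at 6 h of TNF within 50 kb of each of the 10 genes. The x axis is the distance of the peak centre from the gene's start site in kb (negative, upstream), each row is a gene, magenta marks RelA and green RelB, and circles and squares are replicates 1 and 2. *Tlr2* carries 10 of the 20 peaks, and *Irak2* is the only other gene with peaks of all 4 libraries at one position. The *Tlr1* and *Tlr6* points are the same peak.

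The sequences at the 5 sites called in at least 2 libraries are shown, some of them in part. Whether they account for the differences between the genes was not tested. They are read from the mm9 genome 5′ to 3′ on the strand of the named gene, and capitals mark every match to the κB consensus. That consensus is 2 G, 1 purine, 3 bases of any kind, 2 pyrimidines and 2 C, and it was searched on both strands. The *Tlr2* promoter sequence is chr3:83645690-83645989, on the minus strand and ending at the base before the *Tlr2* start. The *Tlr2* upstream sequence is chr3:83666762-83667061 on the minus strand. The *Irak2* sequence is chr6:113618722-113618843 on the plus strand, and holds no match. The *Myd88* sequence is chr9:119250094-119250294 on the minus strand. The *Ticam1* sequence is chr17:56442446-56442743 on the minus strand.
Tlr2 promoter: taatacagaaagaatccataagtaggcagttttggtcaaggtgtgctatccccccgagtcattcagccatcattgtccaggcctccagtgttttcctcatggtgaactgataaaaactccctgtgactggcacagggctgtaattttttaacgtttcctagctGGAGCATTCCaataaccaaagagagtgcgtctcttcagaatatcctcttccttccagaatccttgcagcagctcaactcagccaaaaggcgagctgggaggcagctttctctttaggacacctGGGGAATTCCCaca
Tlr2 upstream: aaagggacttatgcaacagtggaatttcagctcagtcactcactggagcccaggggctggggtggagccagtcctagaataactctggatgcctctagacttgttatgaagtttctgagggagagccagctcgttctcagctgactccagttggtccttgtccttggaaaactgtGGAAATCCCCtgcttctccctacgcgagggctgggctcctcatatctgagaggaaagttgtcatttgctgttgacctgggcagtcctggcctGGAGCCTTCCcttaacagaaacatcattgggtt
Irak2 intron: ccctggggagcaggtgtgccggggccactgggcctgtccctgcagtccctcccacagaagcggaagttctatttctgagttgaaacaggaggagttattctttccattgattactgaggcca
Myd88 intron: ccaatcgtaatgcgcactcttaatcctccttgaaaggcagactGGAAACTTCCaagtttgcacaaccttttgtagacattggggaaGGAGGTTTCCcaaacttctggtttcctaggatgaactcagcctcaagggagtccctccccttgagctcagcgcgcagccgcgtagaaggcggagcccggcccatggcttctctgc
Ticam1 upstream: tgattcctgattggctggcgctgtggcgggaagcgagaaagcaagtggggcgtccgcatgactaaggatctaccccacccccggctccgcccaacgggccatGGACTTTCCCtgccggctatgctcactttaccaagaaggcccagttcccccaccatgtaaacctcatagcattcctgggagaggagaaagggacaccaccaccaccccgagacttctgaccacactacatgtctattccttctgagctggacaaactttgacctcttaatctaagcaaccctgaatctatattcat

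*Tlr2*, which encodes the receptor for bacterial lipoproteins and acts as a dimer with Tlr1 or Tlr6, had more sites than any other gene of the family. It had 4 sites made of 10 peaks, and the other 9 genes together had 5 sites made of 10 peaks. Of its 4 sites, 2 were each seen in 1 library with 11 ChIP reads. The share of all genes with as many sites was not computed. *Tlr2* was the only one of the 10 genes with 2 or more sites called in all 4 libraries, a pattern held by 1.37% of protein-coding genes. It was also the only one of the 10 with such a site within 1 kb of its start, where the share over all genes was 1.05%.

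The *Tlr2* promoter site spans 83645317 to 83646068 on chromosome 3, covers the start site of the gene and its first untranslated exon, and is centred 4 bp upstream of the start. RelA enrichment there was 2.69 and 2.67 on the log2 scale of fold over input, and RelB enrichment was 2.04 and 2.73. The RelA values lay between the RelB values, so the antibodies overlapped at this site. The fullest 200-base window held 26 and 27 RelA reads and 20 and 25 RelB reads, and the window fullest in input held 11 input reads. The listed fold is that of the window with the highest fold, which need not be either of these, so the fold does not follow from these reads. The false discovery rate (FDR) of the calls ran from 8e-06 in RelA replicate 1 to 0.00265 in RelB replicate 1. Its mean log2 fold of 2.53 exceeded that of 9.84% of the 1860 sites called in all 4 libraries at 6 h, whose median was 3.19. The promoter was thus called in every library and low in fold among such sites. Its whole peaks held 85 and 67 RelA reads against 34 and 25 input reads. Those of RelB held 31 and 57 reads against 18 and 23 input reads, so low fold here does not mean few ChIP reads.

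The second *Tlr2* site, at 83666681 to 83667061 on chromosome 3, is intergenic and centred 21182 bp upstream of the start. *Tlr2* is the only protein-coding gene whose start lies within 50 kb of it. RelA reached log2 folds of 3.70 and 3.58 at this site, against 2.23 and 2.60 for RelB, so both RelA libraries lay above both RelB libraries. The fullest window held 42 and 31 RelA reads and 18 and 27 RelB reads, with at most 9 input reads in any window. In the lists ordered by fold within each library, the site stood in the top 8.03% and 12.7% of RelA peaks and the top 83.5% and 54.1% of RelB peaks. Compared within each library, the upstream site exceeded the promoter site by 1.01 and 0.91 in RelA, by 0.20 in RelB replicate 1, and was lower by 0.14 in RelB replicate 2.

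The remaining *Tlr2* sites were each seen in 1 library. One was centred 3038 bp upstream in RelA replicate 1, with 11 ChIP reads against 3 input reads and an FDR of 0.0826. The other was centred 23230 bp upstream in RelB replicate 1, with 11 ChIP reads against 2 input reads and an FDR of 0.0244. Both were at the low end of what was called, since the fullest window of a called peak held no fewer than 10 or 11 ChIP reads in any 6 h library.

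The partner receptors of Tlr2 shared a single weak peak. *Tlr1* and *Tlr6* lie side by side on chromosome 5 with starts 27.3 kb apart, and RelB replicate 2 had a peak at 65361116 to 65361386 that lay 37251 bp upstream of *Tlr1* and 9964 bp upstream of *Tlr6*. The whole peak held 16 ChIP reads against 9 input reads. The highest log2 fold of its windows was 2.23, at an FDR of 0.0157. Its centre was 59 bp from the start of *Fam114a1*, the nearest gene. The other 3 libraries had no peak there.

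*Tlr3*, the receptor for double-stranded RNA, had 1 peak, in RelA replicate 1, at 46544214 to 46544242 on chromosome 8 and 48266 bp upstream of the start. It held 11 ChIP reads against 3 input reads, with a log2 fold of 2.24. Across the 4 sites of the family seen in 1 library, log2 folds were 2.23 to 2.68 and FDRs 0.0157 to 0.0826, where the median log2 fold of the 9994 sites of that kind was 2.38.

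*Tlr4*, the receptor for lipopolysaccharide, *Tlr5*, the receptor for flagellin, and *Tlr9*, the receptor for unmethylated CpG DNA, had no peak within 50 kb. The peak nearest to the *Tlr4* start was 96.2 kb downstream, still within the annotated gene, in RelA replicate 1 with a log2 fold of 1.87. For *Tlr5* the distance was 72.5 kb upstream, and for *Tlr9* it was 195.7 kb downstream. The *Tlr5* peak belonged to a site called in all 4 libraries that lay outside the 50 kb window.

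*Myd88*, the adaptor shared by most Toll-like receptors and the interleukin-1 receptor family, had 1 site, called in both RelA libraries and in neither RelB library. It spans 119250165 to 119250224 on chromosome 9, 334 bp downstream of the outermost *Myd88* start. It lies in an intron of the 1 annotated *Myd88* transcript that begins at that start, which ends at 119248808. It is 1036, 1057 and 1075 bp upstream of the other annotated *Myd88* starts, whose transcripts run on to 119245052, 119245118 and 119245064. The log2 fold was 3.31 in RelA replicate 1 and 3.17 in RelA replicate 2. The fullest window held 16 and 13 ChIP reads, with at most 6 and 5 input reads in any window, and the FDR was 0.00124 and 0.0136. The whole peaks held 22 and 18 ChIP reads against 10 and 9 input reads. The listed fold is that of the window with the highest fold and does not follow from these reads. In both RelA libraries, called peaks with as many input reads in a window had at least 12 ChIP reads in the fullest window. The site's mean log2 fold of 3.24 exceeded that of 76.6% of the 393 sites called in both RelA libraries and no RelB library, whose median was 2.75. A site of that kind within 1 kb of the outermost start was found for 1 of the 10 genes, *Myd88*, and for 0.411% of all protein-coding genes. From the other annotated *Myd88* starts the site lies farther than 1 kb. The start of *Acaa1a*, a peroxisomal thiolase gene on the opposite strand, is nearer to the site, at 217 bp.

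*Ticam1*, the adaptor of Tlr3 and of endosomal Tlr4, also had 1 site, again called in both RelA libraries only. It spans 56442446 to 56442882 on chromosome 17, 26455 bp upstream of *Ticam1*. The log2 fold was 2.56 and 2.83, and the fullest window held 15 and 21 ChIP reads, with at most 6 input reads in any window. Its mean of 2.70 exceeded that of 45.3% of the 393 sites of its kind. The site covers the start of *Uhrf1*, an epigenetic regulator, with its centre 80 bp upstream of that start. By distance, *Ticam1* ranked 5 among 6 protein-coding genes with a start within 50 kb.

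RelB reads at the *Myd88* and *Ticam1* sites are not listed, because the lists give reads for called peaks only, so RelA and RelB could not be compared there by a test. Among RelB peaks with 5 or 6 input reads in the window fullest in input, the fewest ChIP reads in a fullest window were 11 in replicate 1 and 12 in replicate 2. The fullest RelA windows held 16 and 13 reads at *Myd88* and 15 and 21 reads at *Ticam1*.

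*Irak2*, which encodes a kinase that acts downstream of Myd88, had 1 site, and it had the highest mean log2 fold of the family. It spans 113618722 to 113618948 on chromosome 6, 30374 bp downstream of the *Irak2* start, inside an intron of the full-length transcripts. A shorter annotated *Irak2* transcript starts within the site, at 113618844, and the site centre is 9 bp upstream of that start. Log2 folds were 3.68 in both RelA libraries, with RelB at 3.91 and 3.73, a spread of the 4 libraries narrower than at either *Tlr2* site. The FDR was listed as 0 in all 4. The fullest window held 30 and 26 RelA reads and 28 and 27 RelB reads, with at most 6 input reads in any window. It stood in the top 9.64% and 11.6% of RelA peaks and the top 7.40% and 10.1% of RelB peaks by fold. Its mean of 3.75 exceeded that of 80.9% of the 1860 sites called in all 4 libraries. *Tatdn2* has a start slightly nearer to the site, at 28209 bp, and *Irak2* is second of 3 genes in distance from the outermost starts.

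Set against the *Tlr2* promoter within each library, the *Irak2* site had a higher log2 fold. The difference was 0.99 and 1.00 in RelA and 1.87 and 0.99 in RelB. All libraries shared the same input, so these differences are not independent. The window fullest in input held 6 reads at *Irak2* and 11 at the promoter. Fullest windows held 30 and 26 RelA reads at *Irak2* and 26 and 27 at the promoter. For RelB they held 28 and 27 against 20 and 25. Whole RelA peaks held 49 and 46 ChIP reads at *Irak2*, fewer than the 85 and 67 at the promoter. Those of RelB held 40 and 55 against 31 and 57. Set against the upstream *Tlr2* site, the *Irak2* fold differed by -0.02 and 0.09 in RelA and was higher by 1.67 and 1.13 in RelB. For RelA the upstream *Tlr2* site and the *Irak2* site were thus within 0.09 of each other, while for RelB the *Irak2* site was higher in both libraries. These are differences between sites and were not tested.

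**Figure D2:**
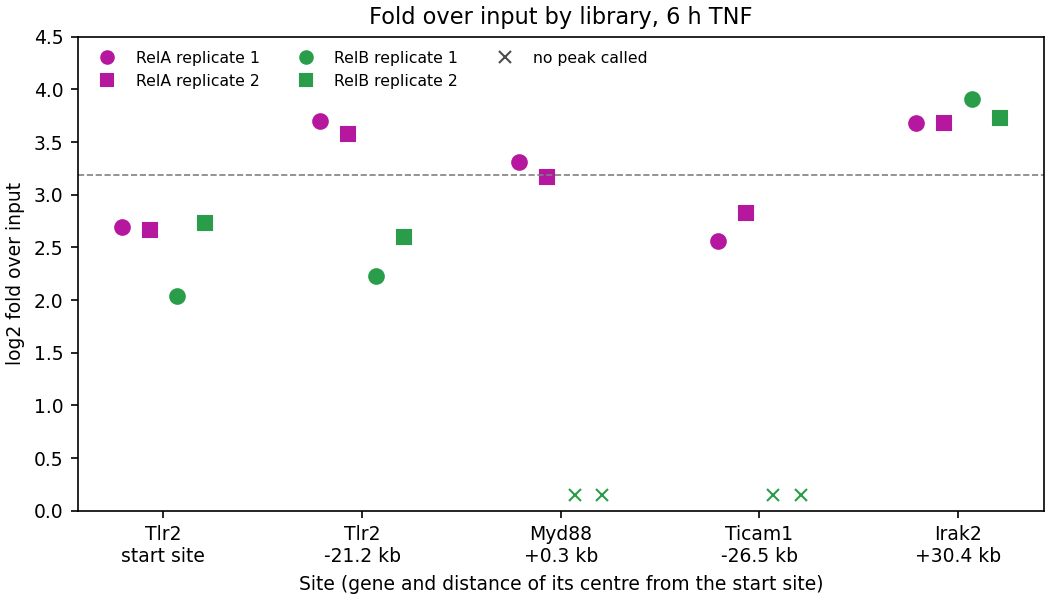
Log2 fold over input (y axis) at the 5 sites called in at least 2 libraries at 6 h, with 1 point per library, RelA in magenta and RelB in green. Crosses near the axis mark libraries with no peak and carry no value, and the dashed line is the median mean log2 fold, 3.19, of the 1860 sites called in all 4 libraries. The upstream *Tlr2* site separates RelA (3.70 and 3.58) from RelB (2.23 and 2.60), and the *Irak2* site does not.

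**Figure D3:**
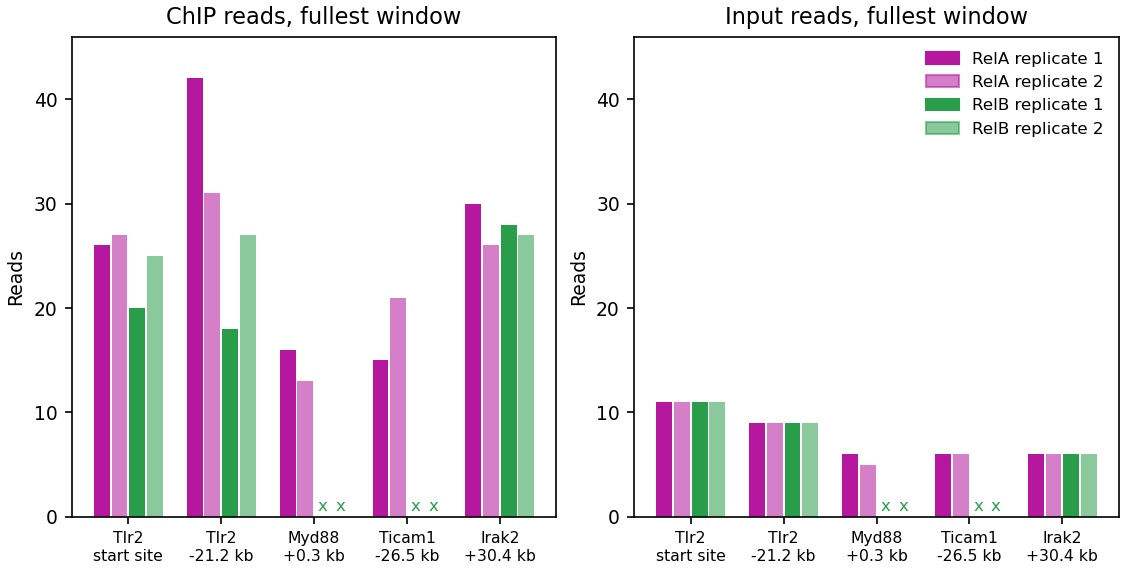
ChIP reads (left) and input reads (right) at the same 5 sites, each in the 200-base window of the peak that holds most of them, which may differ between ChIP and input, with 1 bar per library and an x where no peak was called. The upstream *Tlr2* site ranges from 18 to 42 ChIP reads, and the *Irak2* site from 26 to 30. Input reads are 11 or fewer throughout, and reads were not scaled between libraries.

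Whether RelA and RelB differed in strength was tested with limma over the 1860 sites called in all 4 libraries at 6 h, after each library was centred on its median. Of these, 11 sites (0.591%) differed at an adjusted p under 0.05 (Benjamini-Hochberg), and 0 of the 3 sites of the family were among them. Over all sites, 313 had an unadjusted p under 0.05. At the upstream *Tlr2* site, RelA exceeded RelB by 1.31 (SE 0.272, 95% interval 0.71 to 1.91, limma adjusted p = 0.0547, unadjusted p = 0.000559), a larger difference in favour of RelA than at 99.0% of sites. Its adjusted p ranged from 0.00346 to 0.469 over 10 alternative settings and passed the threshold in 4 of them. One of those left out RelA replicate 2, and the adjusted p was then 0.0479, while leaving out RelB replicate 1 gave 0.469 and leaving out RelB replicate 2 gave 0.431. At the *Tlr2* promoter the difference was 0.38 (SE 0.298, 95% interval -0.28 to 1.03, limma adjusted p = 0.558), with a range of the adjusted p from 0.407 to 0.939. At the *Irak2* site it was -0.06 (SE 0.268, 95% interval -0.65 to 0.53, limma adjusted p = 0.942), with a range from 0.805 to 0.979. These intervals do not show that RelA and RelB bound alike, and leave room for a difference of up to 1.03 at the promoter.

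**Figure D4:**
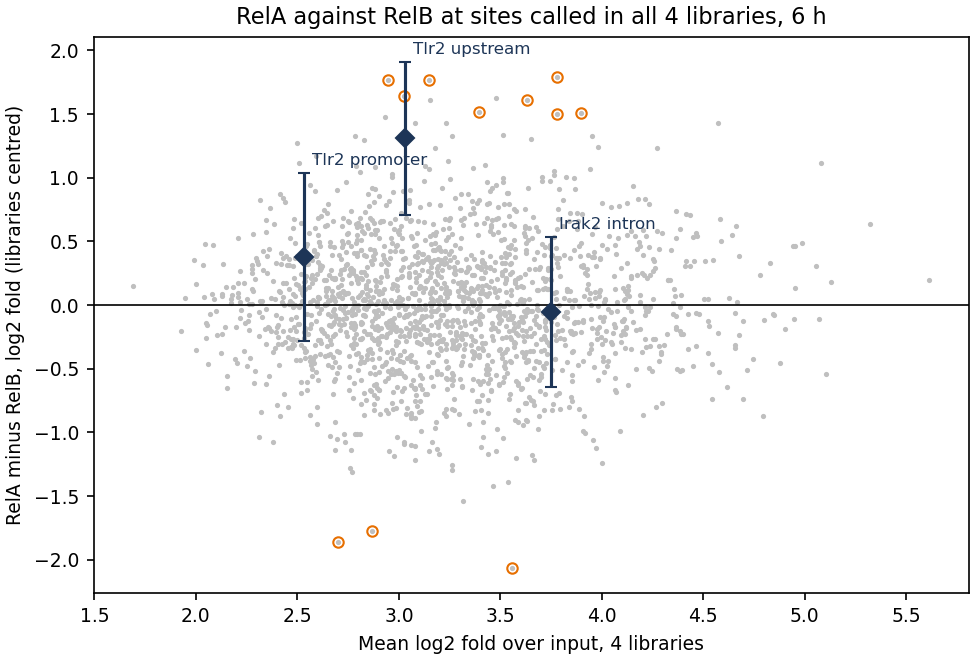
Difference in log2 fold between RelA and RelB after centring (y axis) against the mean log2 fold of the 4 libraries (x axis) for 1860 sites at 6 h. Grey points are sites, orange circles the 11 sites that passed the limma test, and dark diamonds the 3 sites of *Tlr2* and *Irak2* with 95% intervals. The interval of the upstream *Tlr2* site lies above 0, and those of the other two include 0.

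The κB consensus occurred in 6 of the 9 merged sites of the family, though a match need not lie in the peak of every library. For whole merged sites, a share was computed only for those called in all 4 libraries, 86.0%. In the 100 bp on either side of the site centre, the consensus was also found at 6 of the 9, beside 44.3% of all sites called at 6 h. Within 100 bp of the site centre it was found at 3 of the 3 sites called in all 4 libraries, beside 73.9% of the 1860 such sites. It was found at both the *Myd88* and the *Ticam1* site, beside 58.0% of sites called in both RelA libraries and no RelB library. Of the 4 sites seen in 1 library, 1 held a match in that window, beside 33.8% of such sites. A match describes the letters only, and its absence says nothing of the factor.

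The *Tlr2* promoter site held 4 separate stretches that match, of which GGGGAATTCCC lies 9 bp upstream of the start and GGGGACATCCCC lies in the first exon. The upstream *Tlr2* site held GGAAATCCCC 10 bp from its centre and GGAGCCTTCC farther off, both outside the peak of RelB replicate 2. The *Myd88* site held GGAGGTTTCC, and a second match, GGAAACTTCC, fell just outside the called peak. The *Ticam1* site held GGACTTTCCC before the *Uhrf1* start, inside the peak of RelA replicate 2 and outside that of RelA replicate 1. At *Irak2* the match was GGGAAAGCCCC, which overlaps itself on both strands and lies at 113618853 to 113618863, in the first exon of the short transcript and so beyond the end of the sequence printed above. Of the *Irak2* peaks, only that of RelA replicate 1 reached this match. In the promoters of the 10 genes, taken as 250 bases before to 50 after the start, a match was found for 5 (*Tlr1*, *Tlr2*, *Tlr3*, *Tlr6* and *Ticam1*), beside 27.8% of all protein-coding promoters. Of these 5, only *Tlr2* had any peak closer than 1 kb to the start.

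A list of 35 other genes of Toll-like receptor signalling, from co-receptors and chaperones to kinases and interferon regulatory factors, was read in the same way. None had a peak at 0 h, and 21 of 35 had one at 6 h, where the shares of all genes were 1.16% and 43.5%. A site called in all 4 libraries was found near 5 of 35 (14.3%), beside 9.80% of all genes, and 3 of these lay within 1 kb of the start, beside 1.05% of all genes. *Traf3*, a ubiquitin ligase of the adaptor complexes, had the highest mean log2 fold, 3.48, with 4.25 and 3.56 in RelA and 3.12 and 2.97 in RelB at 0.2 kb downstream of its start. *Irf5*, a transcription factor that acts with Myd88, had a mean of 3.09 at 0.4 kb downstream, and *Map3k7*, which encodes the kinase TAK1, a mean of 2.83 at 0.1 kb upstream. *Lbp*, which encodes the lipopolysaccharide-binding protein, had a mean of 2.74 at 3.5 kb upstream. *Irf3*, a transcription factor of the Ticam1 route, had a mean of 2.48 at 20.1 kb downstream, at a site nearer to the start of *Rras*. No gene of the list had a site of both RelA libraries without RelB (2.72% of all genes), and *Tab1* alone had one of both RelB libraries without RelA (2.74% of all genes). By mean log2 fold, the *Irak2* site exceeded all 5, and the *Tlr2* promoter exceeded only the *Irf3* site.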

How the data were processed

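ChIP-seq lists of 8 libraries from Nfkb2-/- MEFs were analysed, and an input library was not used on its own. The authors used cutadapt for trimming and Bowtie for unique alignment to mm9, and called peaks per library with cisGenome 2.0 (version from the submitters' processing notes) against input, with windows of 200 bases. The deposited q-value (FDR, under 0.1) is that of the call. The deposited log2 fold is the highest of the peak's windows. Where that window was also the fullest, the values followed from the reads with 1 read added and input scaled by the authors. The rank column of the lists does not order peaks by fold, so order by fold was computed here. The deposited count columns hold unnormalized ChIP and input reads of each peak and of the window fullest in each. A strong fold can thus rest on few input reads.

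Peaks overlapping by at least 1 bp were merged into sites. Start sites were the outermost of each gene in GENCODE M1 (mm9), whereas the study used an Ensembl annotation, and shares refer to 22380 protein-coding genes. Coordinates are those of the lists, taken as counted from 1. Folds at 1860 sites were tested with limma 3.58.1 (lmFit, eBayes, Benjamini-Hochberg) in R 4.3.3, with libraries centred on their medians. This step was tested on simulated data. With 2 libraries against 2, no exact permutation test of a single value can pass 0.05. All 10 genes were named, with every site in all 4 libraries, and other pathway genes with such a site, up to 5. The genes, the pathway list and the alternatives were chosen with earlier results of these data known. Alternatives covered distance, FDR, reads, overlap, scaling, the replicate block and leaving out each library, and those for the genes with any 6 h peak or with RelA peaks only were added after seeing the data. Python 3.11.15, pandas 2.3.3, pysam 0.24.0, matplotlib 3.10.9 and samtools 1.23.1 were used.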

Additional observations from a re-analysis of the deposited data

How the results depend on the processing

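Of 114 values computed under other settings, 85 kept their direction and call or, for counts, stayed within 1.5 times. Some of these could not have moved, such as counts of 0 at 0 h under a stricter FDR or a shorter distance. Allowing 1 mismatch could likewise not lose a κB match, so the 85 are no measure of robustness. With a distance of 10 kb, 1 gene (*Tlr2*) and 1 site kept a call in all 4 libraries, and with 100 kb there were 5 such sites, with *Tlr5* added. In alternatives chosen after seeing the data, the 7 genes with any 6 h peak became 4 at an FDR under 0.01 and 3 at 10 kb. The 2 genes with RelA peaks only became 1 at that FDR (*Ticam1*) and 1 at 10 kb (*Myd88*). With 1 library left out they were 2 to 4, and the remaining library then stood alone for its antibody. Shares over all genes were not computed under these settings. The number of sites that limma called different between RelA and RelB, 11, moved to 143 with log2 window reads in place of folds (68 higher in RelA, 75 in RelB), to 30 with peaks at an FDR under 0.01, to 48 with at least 20 ChIP reads in every library, and to between 0 and 40 with 1 library left out. It was 40 without RelA replicate 1, 39 without RelA replicate 2 and 0 without RelB replicate 1 or 2 (193 and 203 sites at an unadjusted p under 0.05). The replicate block gave 85 calls (41 higher in RelA, 44 in RelB). Same-numbered libraries did not deviate together at these sites (r = -0.00256), and the labels do not say whether they were paired. At the upstream *Tlr2* site the difference was 1.31 with the replicate block (limma adjusted p = 0.00898), 1.33 with the FDR limit (0.0184), 1.35 with the read limit (0.00346), 0.684 with log2 window reads (0.0599) and 1.15 to 1.47 with 1 library left out. The *Irak2* difference changed sign to 0.0201 with log2 window reads, and ran from -0.168 to 0.0565 with 1 library left out. The cause of these changes was not tested. Unknown total depth limits every missing call.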
